A study of Ovis aries with 16 samples.

Results

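FTO, PSIP1, PRNP and LMNB1 were examined as 4 genes whose array signal was reported to move in opposite directions after a brief occlusion of the artery to the head in fetal sheep, depending on whether the fetus had been given estradiol. They are 4 of 866 named genes with a tested probe. Their probes were found by gene name, or by an alias in the probe description, among the probes of a sheep oligonucleotide array that are not controls: 9 of 15008 distinct probes (2 for FTO, 1 for PSIP1, 4 for PRNP and 2 for LMNB1, which the files list as LOC100037680). The genes were chosen by the measured interaction of the treatments and the occlusion responses on these same arrays, so their values in those comparisons are given as a description and carry no test. Means higher after occlusion without estradiol and lower after it with estradiol were seen in both FTO probes, the PSIP1 probe and the PRNP pair at the start of the transcript. Because of that choice this is no test of the label. At a limma adjusted p under 0.05, 0 of the 9 probes passed in the interaction or either occlusion comparison. The pair of PRNP probes near the 3′ end had higher means after occlusion with estradiol. Both LMNB1 probes had a higher mean after occlusion without estradiol, with groups that overlapped, and a difference near 0 with it.

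FTO, the fat mass and obesity-associated gene, encodes an enzyme that removes methyl groups from adenosines in RNA and is expressed in hypothalamic neurons that govern feeding. PSIP1 encodes LEDGF/p75, a chromatin-bound coactivator that tethers other proteins to actively transcribed genes. PRNP encodes the prion protein, a glycoprotein anchored at the outer surface of neurons and other cells, which binds copper. LMNB1 encodes lamin B1, a filament protein of the nuclear lamina that is abundant in dividing neural progenitors.

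Total RNA from the hypothalamus of 16 chronically catheterized fetal sheep, 1 fetus per array, had been labelled and hybridized. The 4 groups of 4 fetuses were control (no estradiol, sham occlusion), BCO (brachiocephalic occlusion for 10 min, no estradiol), estradiol (250 ug per day for 5 days, sham occlusion) and estradiol+BCO (both treatments). All were at 124 to 128 days of gestation (term being 147 days), all were bled through their catheters, and tissue was taken 1 h after the occlusion or sham period began. In whole hypothalamus, fewer cells of a type and less RNA per cell cannot be told apart.

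Each probe is a 60-base oligonucleotide, and how far the probes of a gene overlap bears on how far their agreement can be read, so their sequences are shown 5′ to 3′ as the files give them. Capitals mark bases that a probe shares with the other overlapping probe of its gene. The FTO probes a and b begin at bases 1133 and 1096 of the transcript named in the files and share 23 bases.
FTO probe a: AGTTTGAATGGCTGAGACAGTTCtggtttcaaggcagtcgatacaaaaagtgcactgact
FTO probe b: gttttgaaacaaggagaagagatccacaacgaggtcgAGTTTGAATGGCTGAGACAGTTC
The PSIP1 probe begins at base 611 and has no overlapping partner.
PSIP1 probe: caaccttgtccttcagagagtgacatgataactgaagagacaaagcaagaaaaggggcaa
The LMNB1 probes a and b begin at bases 317 and 347 and share 30 bases.
LMNB1 probe a: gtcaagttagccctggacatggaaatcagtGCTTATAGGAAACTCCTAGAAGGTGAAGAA
LMNB1 probe b: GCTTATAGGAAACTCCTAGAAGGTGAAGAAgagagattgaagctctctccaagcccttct
The PRNP 5′ probes a and b begin at bases 145 and 146, share 59 bases and hold the start codon, from which they are shown.
PRNP 5′ probe a: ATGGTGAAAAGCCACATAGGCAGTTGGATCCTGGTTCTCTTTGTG
PRNP 5′ probe b: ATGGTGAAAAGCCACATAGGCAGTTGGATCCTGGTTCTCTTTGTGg
The PRNP 3′ probes a and b begin at bases 3978 and 4038 of the same transcript, do not overlap, hold no open frame and are not printed. Whole probes of FTO, PSIP1 and LMNB1 each had 1 frame without a stop codon. The PRNP 5′ pair is therefore almost a repeat of 1 measurement, and the FTO and LMNB1 pairs are in part.

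All 9 probes lay well above background on 16 of 16 arrays, and none was missing or saturated on any of them. Levels are log2 processed signals taken relative to the 75th percentile of each array, so 0 is the brightness of a probe at that percentile, and levels of different probes are not compared. Across arrays the 75th percentile ran from 2021 to 2904 units and 77.27% to 86.41% of probes lay well above background. The number of arrays limits the precision. Arrays sat on 2 slides, with 2 arrays of every group on each, and 858 of 12937 tested probes (6.63%) differed between slides at a limma adjusted p under 0.05. Of the 9 probes examined here 0 did (adjusted p from 0.172 to 0.96). At an unadjusted limma p under 0.05 there were 2 of the 9, beside 2571 of all tested probes (19.9%). As a check of the tissue, 13 of 20 hypothalamic marker genes had a tested probe, of which 10 were well above background on all 16 arrays and the other 3 on 7 (NR5A1), 11 (GHRH) and 14 (GNRH1). Of the 5 tested anterior pituitary markers 2 (PRL and LHB) also lay well above background on all 16, and these 5 genes were named after their values were seen. No probe carried the name of any of 12 neuronal or 10 oligodendrocyte markers.

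FTO was higher after occlusion without estradiol and lower after occlusion with it. FTO probe a read -0.35, -0.34, -0.60 and -0.50 in control replicates 1 to 4 and -0.15, -0.19, -0.17 and -0.083 after BCO. It read -0.25, 0.0056, -0.076 and -0.30 with estradiol alone and -0.45, -0.50, -1.09 and -0.59 with both treatments. Every BCO array lay above every control array, and every estradiol+BCO array lay below every estradiol array. BCO minus control was 0.30 ± 0.13 (log2 difference, SE), a ratio of 1.23, and estradiol+BCO minus estradiol was -0.50 ± 0.13, a ratio of 0.707. The interaction, that is the occlusion difference with estradiol minus the one without, came to -0.80 ± 0.18.

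FTO probe b repeated both directions with more spread. Its group means were -1.20 ± 0.13 in control, -0.89 ± 0.17 after BCO, -0.98 ± 0.22 with estradiol and -1.30 ± 0.36 with both (SD, n = 4 each), and each pair of groups overlapped. The difference of BCO minus control was 0.31 ± 0.17 and that of estradiol+BCO minus estradiol -0.31 ± 0.17, giving an interaction of -0.62 ± 0.24. Both FTO probes were lowest in estradiol+BCO replicate 3, at -1.09 and -1.82. Without that array estradiol+BCO minus estradiol was -0.36 ± 0.10 for probe a and -0.14 ± 0.14 for probe b, so the second of these values rests largely on 1 fetus.

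PSIP1 showed the same pair of directions in its single probe, with the widest interaction of the 9 probes. Its levels were 1.79, 2.22, 2.0 and 2.30 in control replicates 1 to 4 and 2.31, 2.48, 2.84 and 2.39 after BCO. With estradiol alone they were 2.36, 2.64, 2.47 and 2.24, and with both treatments 2.15, 2.10, 1.75 and 1.86. The BCO arrays all lay above the control arrays, though the lowest of them, at 2.31, was close to the highest control at 2.30. The estradiol+BCO arrays all lay below the estradiol arrays. BCO minus control was 0.43 ± 0.15, a ratio of 1.35 (SE), and estradiol+BCO minus estradiol was -0.46 ± 0.15, a ratio of 0.725. The interaction was -0.89 ± 0.21. No second probe of PSIP1 was available to repeat these values.

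**Figure D1:**
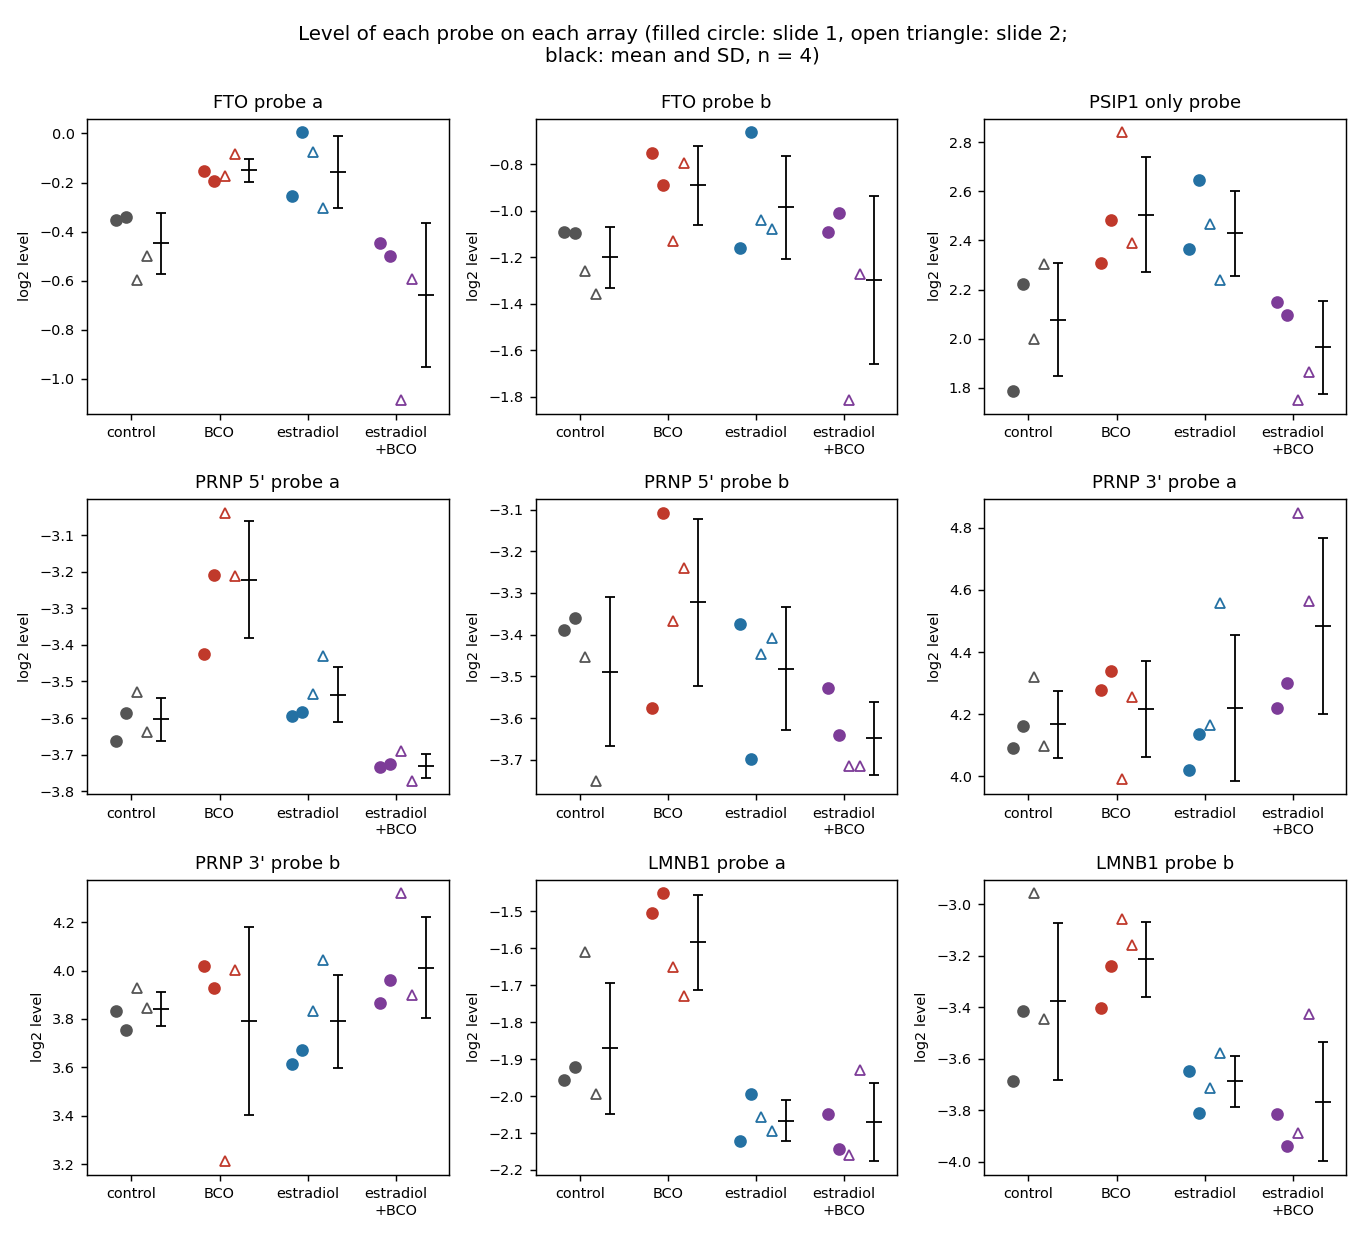
Level of each probe (vertical axis, log2 signal relative to each array's 75th percentile) on each array by group, with slide 1 as filled circles, slide 2 as open triangles and the mean with SD (n = 4) in black. FTO probe a, PSIP1 and PRNP 5′ probe a have BCO arrays wholly above control and estradiol+BCO arrays wholly below estradiol, and PRNP 3′ probe b has BCO replicate 3 at 3.21, below the other BCO arrays.

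PRNP gave different values at the start and at the 3′ end of its transcript. PRNP 5′ probe a read -3.66, -3.59, -3.53 and -3.64 in control replicates 1 to 4 and -3.43, -3.21, -3.04 and -3.21 after BCO. With estradiol alone it read -3.59, -3.58, -3.54 and -3.43, and with both treatments -3.73, -3.73, -3.69 and -3.77. Again the BCO arrays lay wholly above the control arrays and the estradiol+BCO arrays wholly below the estradiol arrays. BCO minus control was 0.38 ± 0.086, a ratio of 1.30 (SE), estradiol+BCO minus estradiol was -0.19 ± 0.086, a ratio of 0.874, and the interaction was -0.58 ± 0.12. With normexp background correction in place of the scanner software's own, BCO minus control of this probe was 0.21. Its signal was dim, from 163 to 282 units.

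PRNP 5′ probe b, shifted by a single base, had the same signs and smaller values. Its group means were -3.49 ± 0.18 in control, -3.32 ± 0.20 after BCO, -3.48 ± 0.15 with estradiol and -3.65 ± 0.088 with both (SD, n = 4 each). The groups overlapped in either comparison. Here BCO minus control was 0.17 ± 0.12 and estradiol+BCO minus estradiol -0.17 ± 0.12, with an interaction of -0.33 ± 0.17 (SE). The difference without estradiol moved to 0.078 without control replicate 4 and to 0.25 without BCO replicate 1. Probe a therefore separated groups that its near-identical twin did not.

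Neither PRNP probe near the 3′ end had opposed differences of that kind. PRNP 3′ probe a read 4.09, 4.16, 4.32 and 4.10 in control replicates 1 to 4, 4.28, 4.34, 3.99 and 4.26 after BCO, 4.02, 4.14, 4.17 and 4.56 with estradiol, and 4.22, 4.30, 4.85 and 4.56 with both treatments. Its groups overlapped throughout. BCO minus control was 0.048 ± 0.15, and estradiol+BCO minus estradiol was positive, at 0.26 ± 0.15 (SE). PRNP 3′ probe b had group means of 3.84 ± 0.070 in control, 3.79 ± 0.39 after BCO, 3.79 ± 0.19 with estradiol and 4.01 ± 0.21 with both (SD, n = 4 each). Its BCO minus control was -0.050 ± 0.17 and its estradiol+BCO minus estradiol 0.22 ± 0.17. Without BCO replicate 3, which read 3.21 against 3.93 to 4.02 on the other BCO arrays, BCO minus control of probe b was 0.14 ± 0.13. Without estradiol+BCO replicate 3, the highest of its group in both, estradiol+BCO minus estradiol was 0.14 ± 0.14 for probe a and 0.12 ± 0.17 for probe b.

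The interactions of the PRNP 3′ probes were 0.22 ± 0.21 and 0.27 ± 0.24, of the opposite sign to those of the 5′ probes. Each shrank with a single array left out, to 0.094 for probe a without estradiol+BCO replicate 3 and to 0.078 for probe b without BCO replicate 3, and that of probe a was -0.00080 on slide 1. When the 4 probes were averaged, the interaction of PRNP was -0.11 ± 0.14, smaller than its error. Raw signals of the PRNP 3′ probes were 35130 to 67775 and 21477 to 46952 units, and none of these readings was saturated.

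LMNB1 had a higher mean after BCO without estradiol and a mean difference near 0 after BCO with it. LMNB1 probe a read -1.96, -1.92, -1.61 and -2.0 in control replicates 1 to 4, -1.50, -1.45, -1.65 and -1.73 after BCO, -2.12, -2.0, -2.06 and -2.09 with estradiol, and -2.05, -2.14, -2.16 and -1.93 with both. Control replicate 3, at -1.61, lay within the range of the BCO arrays, so these groups overlapped, as did the estradiol and estradiol+BCO arrays. In the mean, BCO minus control was 0.29 ± 0.10, a ratio of 1.22 (SE). With estradiol the difference was -0.0039 ± 0.10. The sign of this last value turned under 7 of 28 alternative settings, which ranged from -0.051 to 0.030, so it has no direction to oppose the first.

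LMNB1 probe b had group means of -3.38 ± 0.31 in control, -3.21 ± 0.15 after BCO, -3.69 ± 0.099 with estradiol and -3.77 ± 0.23 with both (SD, n = 4 each). BCO minus control was 0.16 ± 0.15 and estradiol+BCO minus estradiol -0.079 ± 0.15. The first of these moved to 0.059 without control replicate 1 and 0.30 without control replicate 3, and the second to -0.022 without estradiol+BCO replicate 2 and -0.19 without estradiol+BCO replicate 4. The interactions of the LMNB1 probes were -0.29 ± 0.14 and -0.24 ± 0.21 (SE), smaller than those of FTO, PSIP1 and PRNP 5′ probe a. In both LMNB1 probes the mean of either group given estradiol was lower than that of either group without it.

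**Figure D2:**
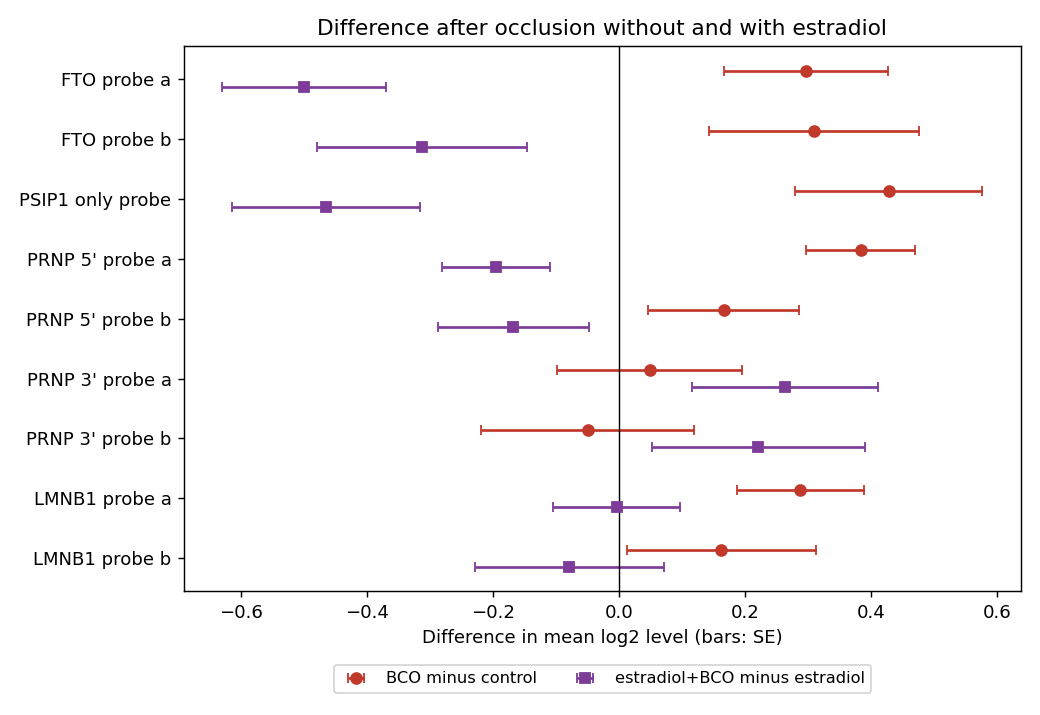
Difference in mean log2 level after occlusion for each probe, without estradiol (BCO minus control, circles) and with estradiol (estradiol+BCO minus estradiol, squares), with bars for the SE. Both FTO probes, PSIP1 and both PRNP 5′ probes lie on opposite sides of 0, the PRNP 3′ probes have squares above 0, and LMNB1 has squares at -0.0039 and -0.079.

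The signs of the differences were positive without and negative with estradiol for 7 of the 9 probes, and the same was true of 26% of all 12937 tested probes and of 315 of 1341 named ones (23.5%). The 7 include both LMNB1 probes, whose difference with estradiol was near 0, and pairs of probes that share bases. Every BCO array lay above every control array for 3 of the 9 (FTO probe a, PSIP1 and PRNP 5′ probe a), against 2.25% of tested probes. Every estradiol+BCO array lay below every estradiol array for the same 3, against 2.88%. These shares describe a set chosen for this pattern and are read no further. At an adjusted p under 0.05 over all tested probes 0 of the 9 passed in the interaction (0.00773% of tested probes did, 1 in all), 0 in BCO against control (0% of tested probes) and 0 in estradiol+BCO against estradiol (0.00773%, 1 in all). Over all tested probes, BCO against control had 928 (7.17%) at an unadjusted limma p under 0.05. The comparisons of occlusion without and with estradiol share no array, whereas the interaction is made from both.

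In order of mean level, FTO probe a ran estradiol+BCO, control, estradiol, BCO, and among these neighbours only control and estradiol did not overlap. FTO probe b had the same order with every neighbour overlapping. PSIP1 followed it too, from 1.96 ± 0.19 with both treatments through 2.08 ± 0.23 in control and 2.43 ± 0.17 with estradiol to 2.51 ± 0.24 after BCO (SD, n = 4 each), each neighbour overlapping the next. Both PRNP 5′ probes had this order as well, and in probe a the estradiol+BCO and control arrays did not overlap, nor did the estradiol and BCO arrays, by the narrow margin between -3.429 on the highest estradiol array and -3.426 on the lowest BCO array. LMNB1 had another order in both probes, namely estradiol+BCO, estradiol, control, BCO, with every neighbour overlapping. The PRNP 3′ probes were highest with both treatments, and their other 3 group means lay within 0.052 of each other for probe a and 0.050 for probe b.

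Estradiol minus control, which shares its control arrays with BCO minus control, was 0.29 ± 0.13 for FTO probe a, 0.22 ± 0.17 for FTO probe b and 0.35 ± 0.15 for PSIP1 (SE). For FTO probe a every estradiol array lay above every control array, which held for 1 of the 9 probes and 1.66% of tested probes. The corresponding values were 0.068 ± 0.086 for PRNP 5′ probe a and -0.20 ± 0.10 for LMNB1 probe a. Under occlusion, estradiol+BCO minus BCO was -0.51 ± 0.13 for FTO probe a, -0.54 ± 0.15 for PSIP1, -0.51 ± 0.086 for PRNP 5′ probe a, -0.49 ± 0.10 for LMNB1 probe a and -0.55 ± 0.15 for LMNB1 probe b. In these 5 of the 9 probes, and in 2.57% of tested probes, every estradiol+BCO array lay below every BCO array. The PRNP 3′ probes were the ones with a positive value there, at 0.27 ± 0.15 and 0.22 ± 0.17.

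Because slides differed over the array, the interaction was also taken within each. For FTO probe a it was -0.52 on slide 1 and -1.07 on slide 2, for FTO probe b -0.41 and -0.83, and for PSIP1 -0.77 and -1.01. PRNP 5′ probe a gave -0.45 and -0.71, and its twin -0.081 and -0.59. These 5 probes kept a negative sign on either slide, each time with the larger size on slide 2. The PRNP 3′ probes gave -0.00080 and 0.43 for probe a and 0.093 and 0.45 for probe b. LMNB1 ran the other way, with -0.50 on slide 1 and -0.083 on slide 2 for probe a and -0.38 and -0.10 for probe b. With 2 arrays per group on a slide these values are given without an error.

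**Figure D3:**
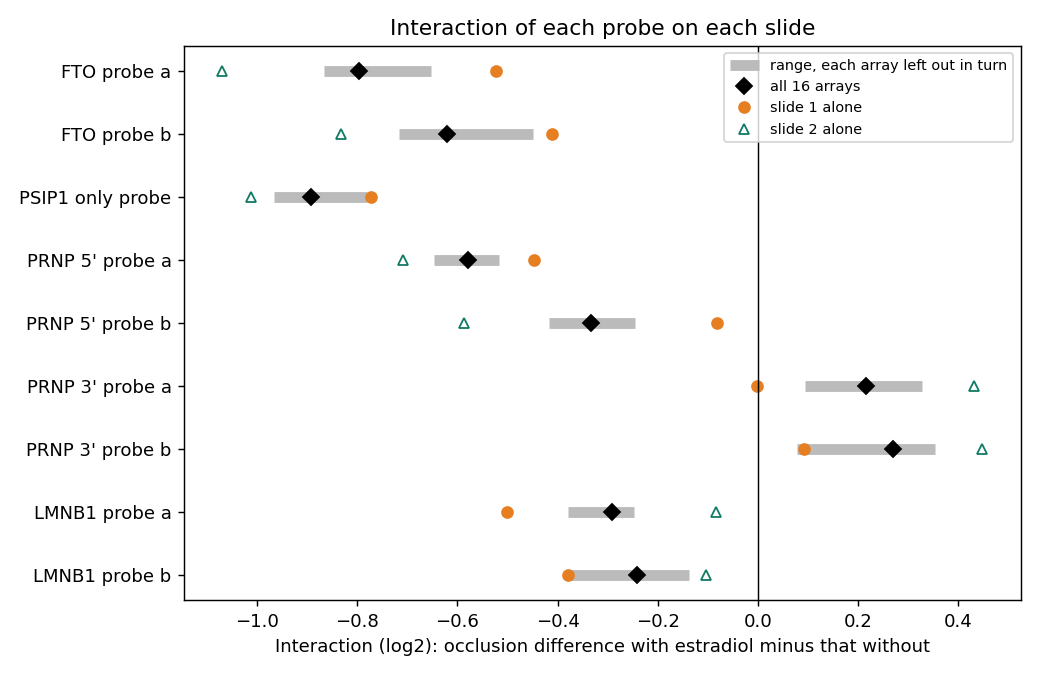
Interaction of estradiol and occlusion (log2, horizontal axis) for each probe over all 16 arrays (diamonds), on slide 1 (circles) and on slide 2 (open triangles), with grey bars for the range when each array was left out in turn. The FTO, PSIP1 and PRNP 5′ values are negative on both slides, with FTO probe a at -0.52 and -1.07, and PRNP 3′ probe a lies at -0.00080 on slide 1.

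The average difference between arrays with and without estradiol uses none of the contrast between the occlusion responses, and it was tested with limma, although the genes were chosen with results of this comparison known too. No probe of the 12937 passed (0%), 722 of them had an unadjusted p under 0.05 (5.58%), and 3 of the 9 did: both LMNB1 probes and PRNP 5′ probe a. LMNB1 probe a was at -2.07 ± 0.078 with estradiol and -1.73 ± 0.21 without (SD, n = 8 each), a difference of -0.34 ± 0.071 (SE; limma adjusted p = 0.74, 0.272 to 1 over the alternative settings). All 8 arrays with estradiol lay below the mean of the other 8, and 6 of them lay below every one of those. LMNB1 probe b differed by -0.43 ± 0.11 (adjusted p = 0.745), with 8 of 8 estradiol arrays below the mean of the others. The LMNB1 differences were negative on both slides, at -0.37 and -0.31 for probe a and -0.37 and -0.50 for probe b. With normexp background correction that of probe b was -0.27.

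PRNP 5′ probe a differed by -0.22 ± 0.061 with estradiol (adjusted p = 0.831), 8 of 8 arrays lying below the mean of the others, and probe b by -0.16 ± 0.085 (adjusted p = 0.88). With normexp background correction these became -0.087 and -0.10. Under sham neither PRNP 5′ probe had a lower mean with estradiol, estradiol minus control being 0.068 ± 0.086 and 0.0073 ± 0.12 (SE). Under occlusion both did, estradiol+BCO minus BCO being -0.51 ± 0.086 and -0.33 ± 0.12, so their averages come from the occluded groups. The PRNP 3′ probes had positive averages, 0.16 ± 0.10 and 0.086 ± 0.12, which turned to -0.048 and -0.11 on slide 1. For FTO the averages were -0.11 ± 0.092 and -0.096 ± 0.12 and for PSIP1 -0.095 ± 0.11, the last of which was 0.11 on slide 1 and -0.30 on slide 2. Without estradiol+BCO replicate 3 the FTO averages were -0.036 and -0.0092. In FTO and PSIP1 these averages combine a higher mean with estradiol under sham and a lower one under occlusion. No difference of the 9 probes passed the test, and the adjusted p ran from 0.74 to 0.936.

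**Figure D4:**
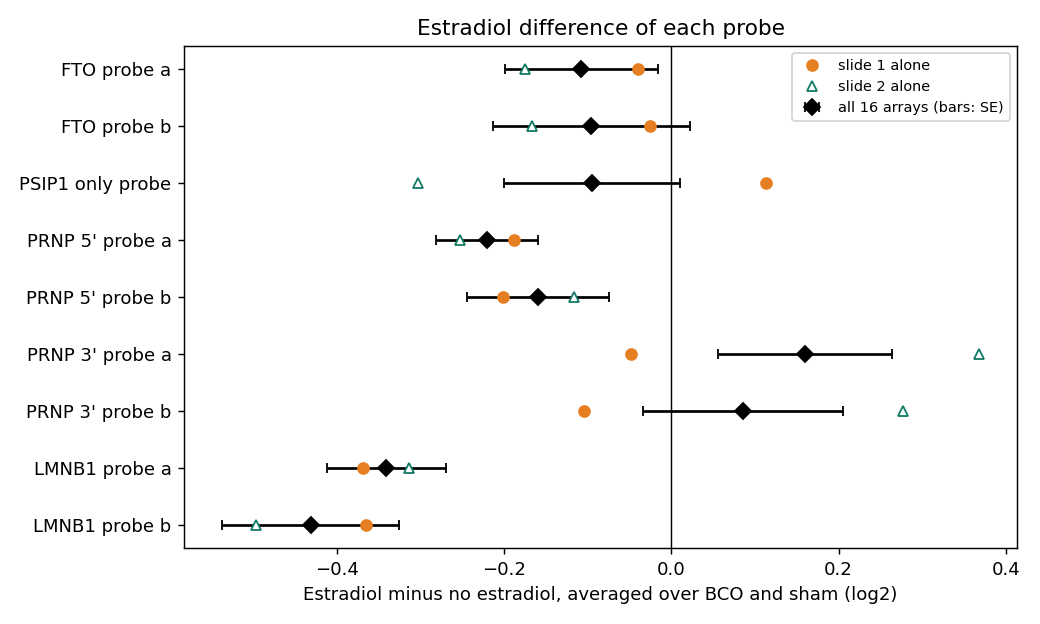
Difference between arrays with and without estradiol, averaged over BCO and sham (log2, horizontal axis), for each probe over all 16 arrays with its SE (diamonds) and within slide 1 (circles) and slide 2 (open triangles). Both LMNB1 probes and both PRNP 5′ probes are below 0 on either slide, whereas PSIP1 and the PRNP 3′ probes change sign between slides, and 0 of the 9 passed the test.

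Whether probes of a gene agreed beyond the group means that chose them was examined from the deviations of the 16 arrays from their group means, over 36 pairs of probes, with permutation p-values adjusted over the pairs. The permutations moved arrays within a group and across its slides, so a difference between slides stays in these deviations. The FTO probes had r = 0.88 and rho = 0.85 (permutation p = 0.00087 and 0.00063, adjusted p = 0.0313 and 0.0227), and r = 0.80 without the 2 most distant arrays. The PRNP 3′ probes had r = 0.77 and rho = 0.83 (permutation p = 0.00226 and 0.00138, adjusted p = 0.0407 and 0.0248), and r = 0.68 without 2 arrays. The PRNP 5′ probes, which share 59 bases, had r = 0.37 and rho = 0.18 (permutation p = 0.317 and 0.567, adjusted p = 0.869 and 0.909), and r = -0.033 without 2 arrays. For LMNB1 the values were r = 0.53 and rho = 0.31 (permutation p = 0.131 and 0.321, adjusted p = 0.428 and 0.786), and r = -0.10 without 2 arrays. The PRNP 5′ and LMNB1 pairs held a dim probe or were dim throughout, with highest readings of 268 and 282 units for the PRNP 5′ probes and 374 for LMNB1 probe b.

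After the mean of each group on each slide was subtracted instead, an alternative chosen after seeing the data, r was 0.83 for the FTO probes (rho = 0.65), 0.74 for the PRNP 3′ probes (rho = 0.85), 0.51 for the PRNP 5′ probes (rho = 0.35) and 0.80 for the LMNB1 probes (rho = 0.53). In an exact test over the 256 swaps of the 2 arrays that a group has on a slide, where p cannot go below 0.00781, these r had p = 0.125, 0.0469, 0.359 and 0.18 (adjusted p = 0.743, 0.492, 0.754 and 0.743). The r of the FTO and PRNP 3′ pairs thus kept its size. Both pairs passed in the test where slides were not kept apart. With slides kept apart, a pair on its own cannot pass after adjustment because of that lowest p, so no conclusion is drawn from that test.

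Between the ends of PRNP the deviations showed little relation, with r from -0.30 to 0.13 in the 4 pairs of a 5′ and a 3′ probe (permutation p from 0.494 to 0.991, none under an adjusted p of 0.05). The PRNP 3′ probes against PSIP1 gave r = -0.64 for probe a (rho = -0.62, permutation p = 0.0112 and 0.0192, adjusted p = 0.101 and 0.173) and r = -0.71 for probe b (rho = -0.66, permutation p = 0.00702 and 0.00838, adjusted p = 0.0842 and 0.101). PRNP 3′ probe a and FTO probe a gave r = -0.70 (rho = -0.61, permutation p = 0.0166 and 0.0314, adjusted p = 0.119 and 0.226). FTO probe a and PSIP1 deviated with r = 0.43 and rho = 0.36 (permutation p = 0.0966 and 0.195, adjusted p = 0.348 and 0.541). None of these pairs of different genes passed after adjustment, and without the 2 most distant arrays r was -0.54 for either PRNP 3′ probe against PSIP1 and -0.49 for PRNP 3′ probe a against FTO probe a. With slides kept apart r was -0.48 and -0.68 for PRNP 3′ probes a and b against PSIP1, -0.53 for PRNP 3′ probe a against FTO probe a and 0.34 for FTO probe a with PSIP1 (exact p = 0.203, 0.0234, 0.352 and 0.156, adjusted p = 0.743, 0.492, 0.754 and 0.743). In single arrays, estradiol+BCO replicate 3 was the highest of its group in both PRNP 3′ probes and the lowest in PSIP1 and FTO. BCO replicate 3 was the lowest of its group in both PRNP 3′ probes and the highest in PSIP1 and PRNP 5′ probe a. FTO did not mirror PRNP 3′ on BCO replicate 3, where FTO probe b was also the lowest of its group, at -1.13, and FTO probe a was at neither end.

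**Figure D5:**
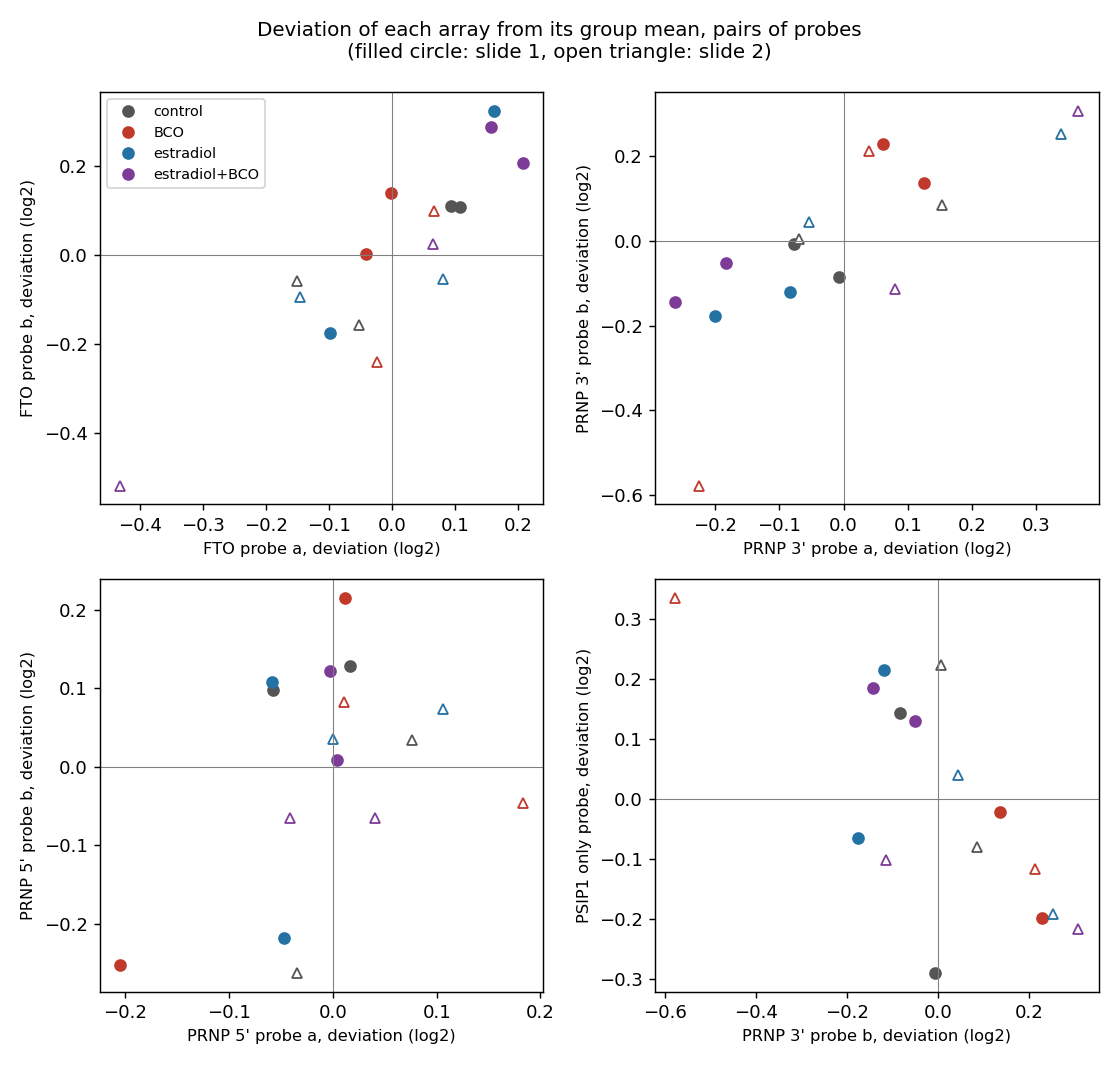
Deviation of each array from its group mean (log2, both axes) for the FTO probes, the PRNP 3′ probes, the PRNP 5′ probes, and PRNP 3′ probe b against PSIP1, with slide 1 as filled circles and slide 2 as open triangles. The FTO pair and the PRNP 3′ pair rise together (r = 0.88 and 0.77, or 0.83 and 0.74 with slides kept apart), the PRNP 5′ pair is scattered (r = 0.37), and PSIP1 falls as PRNP 3′ probe b rises (r = -0.71, adjusted p = 0.0842).

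The named genes whose levels were most like each gene over the 16 arrays, by Pearson r among 1332 to 1335 named probes and for the brightest probe of the gene, are given as a description. Since the arrays share slides, scaling and groups, the r after subtracting group means is set beside each, and rho over all arrays ran from 0.57 to 0.87 for the most like and from -0.77 to -0.58 for the least like. FTO was most like EIF4GI, a scaffold of translation initiation (r = 0.84, within groups 0.75), AGGF1 (0.81 and 0.46) and GRIN1, a subunit of NMDA receptors (0.80 and 0.73), and least like COX15 (-0.81 and -0.66). PSIP1 was most like RPS6 (0.78 and 0.56), FTO itself (0.78 and 0.43) and UBQLN1 (0.76 and 0.57), and least like IFNAR1 (-0.72 and -0.65) and ATOX1 (-0.71 and -0.55).

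PRNP, by its 3′ probe a, was most like ATP1B1, a subunit of the sodium pump (r = 0.87, within groups 0.83), GLUT-1, the glucose transporter of the blood-brain barrier (0.82 and 0.78), and IFNAR1 (0.78 and 0.68), and least like TIMP3 (-0.77 and -0.68) and SMO (-0.77 and -0.63). LMNB1 was most like ASPM, a protein of the mitotic spindle (0.81 and 0.59), RHAMM (0.80 and 0.47) and EAAT3, a neuronal glutamate transporter (0.75 and 0.52), and least like ATP6V1E1 (-0.76 and -0.45) and RABL2B (-0.73 and -0.59). FTO appeared among the genes most like PSIP1. Both were chosen for the same response on these arrays, which favours a high r between them, and their r within groups was 0.43. IFNAR1 stood near PRNP 3′ probe a and far from PSIP1, by a different probe of IFNAR1 in each case. Without the 2 most distant arrays r was 0.59 for FTO with EIF4GI and -0.34 for PRNP 3′ probe a with TIMP3, so both rest in part on those arrays. In the other most and least like genes named here r then ran from 0.56 to 0.91 and from -0.86 to -0.57. For most of these others too it was smaller in size than over all arrays, and for a few, such as FTO with AGGF1, it was not.

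Of the genes around these 4 in function, few had a probe that carried their name. None of 20 genes of RNA adenosine methylation, of 20 partners or relatives of PSIP1, or of 22 genes of the nuclear lamina and envelope did. Among 17 neighbours of FTO and energy balance genes 4 were tested: AGRP and NPY, which drive feeding, POMC, the precursor of melanocortins, and LEPR, the leptin receptor. All 4 had a lower mean after BCO than in control, with a median difference of -1.63 beside 0.0080 over all tested probes, and lower after both treatments than with estradiol, with a median of -1.17 beside -0.0080. None passed the test in either. AGRP was at -1.04 ± 0.64 in control and -5.84 ± 0.37 after BCO, POMC at 1.24 ± 0.57 and -0.31 ± 0.28, and NPY at 1.61 ± 0.60 and -0.091 ± 0.97 (SD, n = 4 each). In sign this list was lower where FTO was higher after BCO, and lower along with FTO where estradiol had been given.

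Of 22 partners of the prion protein and copper handling genes 6 were tested and 0 passed in any of these comparisons. Their median was 0.022 for BCO against control and 0.032 for estradiol+BCO against estradiol, with 3 of 6 higher in each. With estradiol all 6 had a lower mean on average (median -0.15 beside -0.010 over all tested probes). The PRNP 5′ probes were also lower on average, though not under sham, and the PRNP 3′ probes were not. PRND, which encodes the doppel protein and lies next to PRNP, differed by 0.41 ± 0.24 after BCO and 0.31 ± 0.24 after BCO with estradiol, the same direction in both (SE). RPSA, a ribosomal protein also known as the laminin receptor, had an interaction of 0.30 ± 0.24, CAV1, a protein of caveolae, -0.30 ± 0.22, and HSPA5, a chaperone of the endoplasmic reticulum, -0.19 ± 0.20. No other gene that adjoins one of the 4 had a named probe.

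Mean levels of some lists of cell type markers lay at different ranges between groups, though no marker passed in either occlusion comparison. The means of the tested astrocyte, microglial, endothelial and ependymal lists overlapped between the groups of either occlusion comparison. The mean level of the 13 hypothalamic markers was -1.64 to -0.98 on control arrays, -4.47 to -3.14 after BCO, -2.92 to -0.21 with estradiol and -3.11 to -1.09 with both, so the BCO arrays lay wholly below the control arrays, where FTO probe a, PSIP1 and PRNP 5′ probe a lay wholly above them. In BCO against control 12 of the 13 were lower (median -2.18), where 51.9% of all tested probes were higher, and 0 passed. The mean of 5 tested anterior pituitary markers was -4.62 to -1.59 in control, -5.31 to -3.61 after BCO, -4.07 to -2.09 with estradiol and -5.07 to -4.14 with both. In BCO against control all 5 were lower (median -0.665). In estradiol+BCO against estradiol 3 were higher and 2 lower (median 0.0050), and none passed in either. The lower ones were FSHB and CGA, the latter at -1.95 ± 4.15 with estradiol and -6.72 ± 1.84 with both (SD, n = 4 each). The part of these hypothalamic and pituitary markers in the values of the 4 genes was not tested. Beside LMNB1, 7 of 19 markers of proliferating cells were tested: 7 of 7 had a higher mean after BCO (median 0.30) and 4 of 7 a higher one after BCO with estradiol (median 0.28), where the LMNB1 probes differed by -0.0039 and -0.079. With estradiol on average 6 of 7 were lower (median -0.15), and 0 passed in any of these comparisons. Their mean level ran from -2.14 to -1.62 in control, -1.70 to -1.47 after BCO, -2.24 to -1.80 with estradiol and -2.08 to -1.43 with both, and their part in the LMNB1 values was not tested.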

How the data were processed

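The authors hybridized Cy3-labelled RNA to a single-color Agilent array of design 019921, using the Quick Amp kit per the labels' protocols. Per the file headers, scans went through version 10.1.1.1 of Feature Extraction under protocol GE1-v5_10_Apr08. In each deposited scanner file is the processed intensity in arbitrary units, already background-corrected. The deposited value table holds log2 values, which set against the scanner files equal log2 processed signal minus the array median. The genome build of the probe positions was not given in the sources used here.

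From the scanner files, flagged spots were set to missing, the 75th percentile of non-control spots was subtracted from log2 signal, and spots of a probe were averaged. Probes not well above background on at least 4 arrays were left out (2071 of 15008). A model of 4 group means over all 16 arrays was fitted to the 12937 remaining probes with limma 3.58.1 (R 4.3.3, empirical Bayes, two-sided, Benjamini-Hochberg over all probes), after the script was tested on simulated data. Correlations used 100000 permutations of arrays within their group, and an exact test within group and slide. The genes named were all probes of the 4 genes, the most and least like genes by a fixed rule, and up to 4 per list with the lowest interaction p. One gene that this rule chose is not reported here. The genes, lists and rules were chosen with earlier results of these data known. Names came from the files and a sheep gene table of assembly ARS-UI_Ramb_v3.0, which named 1341 tested probes of 866 genes. Same-numbered arrays of different groups did not deviate together beyond others of their slide (median correlation 0.124 against 0.142), so numbers were not taken as pairs. Nothing in the labels says more of how replicates relate than 1 fetus each, and p-values measure the spread between these fetuses.

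Alternatives tried were median centring, quantile normalization, no filter, normexp with an offset of 50, a filter on all 16 arrays, slide or replicate number as a block, each slide alone, the value table, trended and robust moderation, groups compared alone, single probes or their mean, each array left out and, for the correlations, slide means subtracted.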

Additional observations from a re-analysis of the deposited data

Results flagged for a closer look

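Within groups of 4 arrays, 68 groups were examined over the 9 probes and 8 named list genes for an array far from its group, where chance alone gives about 1 in 20. There was 1 such array. PRNP 3′ probe b read 3.21 in BCO replicate 3, with its nearest neighbour at 3.93, a gap of 0.886 of the range of the group. PRNP 3′ probe a was also lowest of its group on that array, at 3.99. BCO replicate 3 had the most probes with a flagged spot of any array, 36 of 15008, though neither of these 2 readings was flagged.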

How the results depend on the processing

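Of the 9 probes, 0 passed in the interaction, either occlusion comparison or the estradiol average under any alternative. The interaction kept its sign in the FTO, PSIP1, PRNP 5′ and LMNB1 probes under all 27 alternatives, running from -1.07 to -0.52 for FTO probe a, -1.01 to -0.76 for PSIP1 and -0.71 to -0.45 for PRNP 5′ probe a. For PRNP taken by its 3′ probe a (0.22), the interaction became -0.33 by 5′ probe b, -0.58 by 5′ probe a and -0.11 by the mean of its probes. In the same way BCO minus control became -0.050 by 3′ probe b, and estradiol+BCO minus estradiol became -0.17 and -0.19 by the 5′ probes. The estradiol average turned on slide 1 alone to -0.048 and -0.11 in the PRNP 3′ probes and 0.11 in PSIP1, and PRNP 3′ probe b ran from -0.010 (without BCO replicate 3) to 0.12 with each array left out; the cause was not tested. With group and slide means subtracted, the correlation of PRNP 3′ probe a with 5′ probe b went from -0.0080 to 0.24. Those of the FTO and PRNP 3′ pairs no longer passed, in a test where a pair on its own cannot pass after adjustment. PRNP 3′ probe b with normexp background correction had an interaction of 0.45, and probe a with quantile normalization 0.14.

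Counts over all tested probes rest on very few calls. In the interaction 1 probe became 0 with quantile normalization, median centring, no filter, either slide alone or the value table, and 3 with slide as a block. It ran from 0 to 3 with each array left out. BCO against control went from 0 to 14 on slide 2 alone and 3 with its groups alone, and 0 to 6 with arrays left out. Estradiol+BCO against estradiol went from 1 to 0 with median centring, either slide alone, the value table or its groups alone, and 0 to 1 with arrays left out. The estradiol average went from 0 to 1 on slide 1 alone and 0 to 1 with arrays left out. The slide count ran from 685 to 875 with arrays left out. With the replicate number as a block, which the arrays do not bear out as a pairing, the interaction count was 3 and that of estradiol+BCO against estradiol 0, and the interaction of FTO probe a stayed at -0.80 ± 0.18 (SE). Causes of these shifts were not tested. The PRNP 5′ probes and LMNB1 probe b were dim, so their values are read with caution, and the part of dim signal in them was not tested.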
